A study of Mus musculus with 16 samples.

Results

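The guanylate-binding proteins (GBPs) are large GTPases that cells make in response to interferon. The 10 members Gbp2 to Gbp11 were taken by gene symbol from a table of 23356 genes, in which all 10 were present with the status OK in every condition. A further row named Gbp1 is not a member. The expression of these genes was measured by RNA-seq in bone marrow-derived dendritic cells (BMDCs), grown for 6 days with GM-CSF and IL-4 from C57BL/6 background mice that were wild-type, Tmem173-/-, Irf1-/- or Irf3/7-/-. Tmem173 encodes STING, the sensor of cyclic dinucleotides, and Irf3/7-/- cells lack both Irf3 and Irf7 according to their label. Cells of each genotype were left untreated or received 25 μg/ml c-di-GMP, a bacterial cyclic dinucleotide, for 18 h, and each of the 8 conditions comprised 2 of the 16 samples. Every difference between genotypes is therefore one between whole cultures of knockout marrow, in which the mutation was carried by all cells and not only by dendritic cells. Nothing in the labels says which mice or cultures the 2 samples of a condition came from.

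GBPs belong to the dynamin superfamily. They assemble on the membranes of vacuoles that hold parasites or bacteria and on cytosolic bacteria, where they break open the vacuole or the bacterial surface and promote inflammasome signaling. IFN-γ is their strongest known inducer, and acts in part through the transcription factor IRF1, while type I interferons also induce them. In the mouse the genes lie in gene clusters that arose by duplication.

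The members fell into 2 such clusters. Gbp5, Gbp7, Gbp3 and Gbp2 lie in this order on the plus strand of chromosome 3, between 142496934 and 142638008 (141 kb). Gbp8, Gbp9, Gbp4, Gbp10, Gbp6 and Gbp11 lie on the minus strand of chromosome 5, between 105014153 and 105346472 (332 kb). The positions are those of the table, which match the GRCm38 annotation (GENCODE M21). Of the 10 genes, 9 are annotated as protein coding and Gbp11 as a polymorphic pseudogene, a gene that is intact in some strains and broken in others. The annotated spans of Gbp8 and Gbp9 reach into that of Gbp4 on the same strand, although the positions in the table do not overlap.

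Because the members arose by duplication, they share sequence, and this bears on how well their reads can be told apart. All stretches of 35 bases, the length of a read, were read from a transcript of each gene and searched in the transcripts of all other genes. In Gbp6, 80.8% of the stretches also occurred in another member, and in Gbp10 81.7%, mostly in each other (70.7% of the stretches of Gbp6 and 77.2% of those of Gbp10). Gbp8 shared 31.5% and Gbp11 30.1%, Gbp4 19.8% and Gbp9 18.1%. On chromosome 3 the shares with other members were 6.46% for Gbp3, 3.35% for Gbp7 and 0% for Gbp2 and Gbp5. With any other gene, Gbp7 shared 14.3% (10.8% with Gm43802), Gbp2 3.87% and Gbp5 1.62%. The values of Gbp6 and Gbp10 are therefore uncertain relative to each other. Their total is uncertain too, since Gbp6 shared 93.2% and Gbp10 83.2% of its stretches with Gm43302, an annotated gene outside the list. Reads were sequenced in pairs, so the part of a fragment that is unique may be larger than these shares.

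RefSeq sequence upstream of the transcription start was available for the 4 genes on chromosome 3 and was not used for the others. The 250 bases before the start are shown for these genes because of this availability. Capitals mark the core of the interferon-stimulated response element (ISRE), which IRF proteins bind, and the gamma-activated sequence (GAS), an element known from genes that IFN-γ induces. The build is GRCm38.p6. GENCODE M21 places the starts of Gbp2 (142620602), Gbp3 (142560026) and Gbp5 (142493978) before the ends of the windows shown. Parts of the windows of Gbp2 and Gbp3, and all of that of Gbp5, therefore lie inside the annotated gene. The marked stretches of Gbp2 and Gbp5 are in these parts.
Gbp2, chr3:142620413-142620662, plus strand: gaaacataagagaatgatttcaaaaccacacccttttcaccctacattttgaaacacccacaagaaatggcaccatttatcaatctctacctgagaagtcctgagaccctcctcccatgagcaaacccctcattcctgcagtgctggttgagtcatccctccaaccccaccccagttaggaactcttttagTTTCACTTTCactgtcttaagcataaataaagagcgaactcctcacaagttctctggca
Gbp3, chr3:142559794-142560043, plus strand: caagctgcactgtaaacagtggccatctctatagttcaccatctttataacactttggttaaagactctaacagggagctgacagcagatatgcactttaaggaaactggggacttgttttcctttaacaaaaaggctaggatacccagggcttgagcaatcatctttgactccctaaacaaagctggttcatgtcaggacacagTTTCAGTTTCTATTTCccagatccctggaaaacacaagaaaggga
Gbp5, chr3:142496684-142496933, plus strand: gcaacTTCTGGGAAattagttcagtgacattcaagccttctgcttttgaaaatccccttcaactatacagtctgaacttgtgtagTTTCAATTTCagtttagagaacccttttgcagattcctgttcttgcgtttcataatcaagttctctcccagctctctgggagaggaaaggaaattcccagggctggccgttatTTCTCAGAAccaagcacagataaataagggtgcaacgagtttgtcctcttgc
Gbp7, chr3:142530086-142530335, plus strand: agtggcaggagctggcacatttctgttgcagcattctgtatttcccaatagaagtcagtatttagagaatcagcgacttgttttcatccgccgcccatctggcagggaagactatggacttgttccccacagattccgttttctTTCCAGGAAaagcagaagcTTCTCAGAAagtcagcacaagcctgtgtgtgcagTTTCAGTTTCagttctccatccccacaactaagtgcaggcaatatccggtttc
The ISRE core was searched as GAAANNGAAA on either strand, and was found as TTTCACTTTC in Gbp2 (from -59 to -50, counted from the start), TTTCAATTTC in Gbp5 (-165 to -156) and TTTCAGTTTC in Gbp7 (-53 to -44). Gbp3 had a pair of matches that overlap, TTTCAGTTTC (-45 to -36) and TTTCTATTTC (-39 to -30). A further start of Gbp3, whose window begins at position 142560106, had no match to any motif, so 4 of the 5 windows held the ISRE core, against 2.98% of all 32851 promoter windows of that length. GAS, searched as TTCNNNGAA, reads the same on both strands and was found 2 times each in Gbp5 (-245 to -237 and -52 to -44) and Gbp7 (-106 to -98 and -87 to -79), that is in 2 of 5 windows against 7.02% of all. A κB element, searched as GGGANNNNCC, was found in Gbp5 alone among the 5 windows (-77 to -68, GGAAATTCCC on the strand shown), against 17.6% of all. These are matches of letters, and whether a factor bound there was not measured.

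The table holds 1 FPKM per condition (fragments per kilobase of transcript, relative to each library's total), in which the authors had combined the replicates, with the lower and upper bound of an interval. Values per replicate were not analysed here, so no spread between replicates and no p-value can be given, and the interval stands for the error. FPKM do not show how deeply each sample was sequenced. A comparison tested those genes that reached 1 FPKM in either condition. The call of higher or lower required a difference of more than 2-fold on the scale log2(FPKM + 0.1) and intervals that did not overlap. In several comparisons Gbp10 and Gbp11 reached 1 FPKM only in the condition where they were high. So did Gbp4, Gbp6 and Gbp8 in some comparisons with Tmem173-/- or Irf1-/- BMDCs. Such a member can be tested only when it differs, so the counts below are of all 10 members, and those not tested are named. FPKM is a value per length, so levels of different members can be compared as far as their reads can be told apart. For Gbp6 and Gbp10 this is uncertain, as described above. The dendritic cell markers Itgax, H2-Ab1, H2-Aa, Cd74, Flt3, Zbtb46, Ccr7 and Irf4 were all at 1 FPKM or above in every condition, with differences between genotypes: in Irf1-/- BMDCs H2-Ab1 and H2-Aa were lower than in wild-type BMDCs (278 against 650 and 364 against 1031 FPKM untreated, 331 against 890 and 462 against 1424 FPKM treated), and in treated Tmem173-/- BMDCs Ccr7 (114 against 1257 FPKM) and Irf4 (84.2 against 173 FPKM) were lower and Itgax higher (328 against 135 FPKM). The part of these differences in the GBP levels was not tested. Tmem173 was at 8.97 and 7.49 FPKM in the Tmem173-/- cells without and with c-di-GMP, where wild-type cells had 103 and 118 FPKM. Irf1 was at 25.9 and 116 FPKM in Irf1-/- BMDCs, against 149 and 245 FPKM. Irf7 was at 1.07 and 4.97 FPKM in cells labelled Irf3/7-/-, against 15.2 and 687 FPKM. Irf3 went against the label after treatment: it was at 7.74 FPKM in untreated and 20.2 FPKM in treated cells labelled Irf3/7-/-, against 19.9 and 15.8 FPKM in wild-type BMDCs. FPKM covers the whole gene, including parts outside a deletion. Every direction given below for the libraries labelled Irf3/7-/- has this limit.

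**Figure D1:**
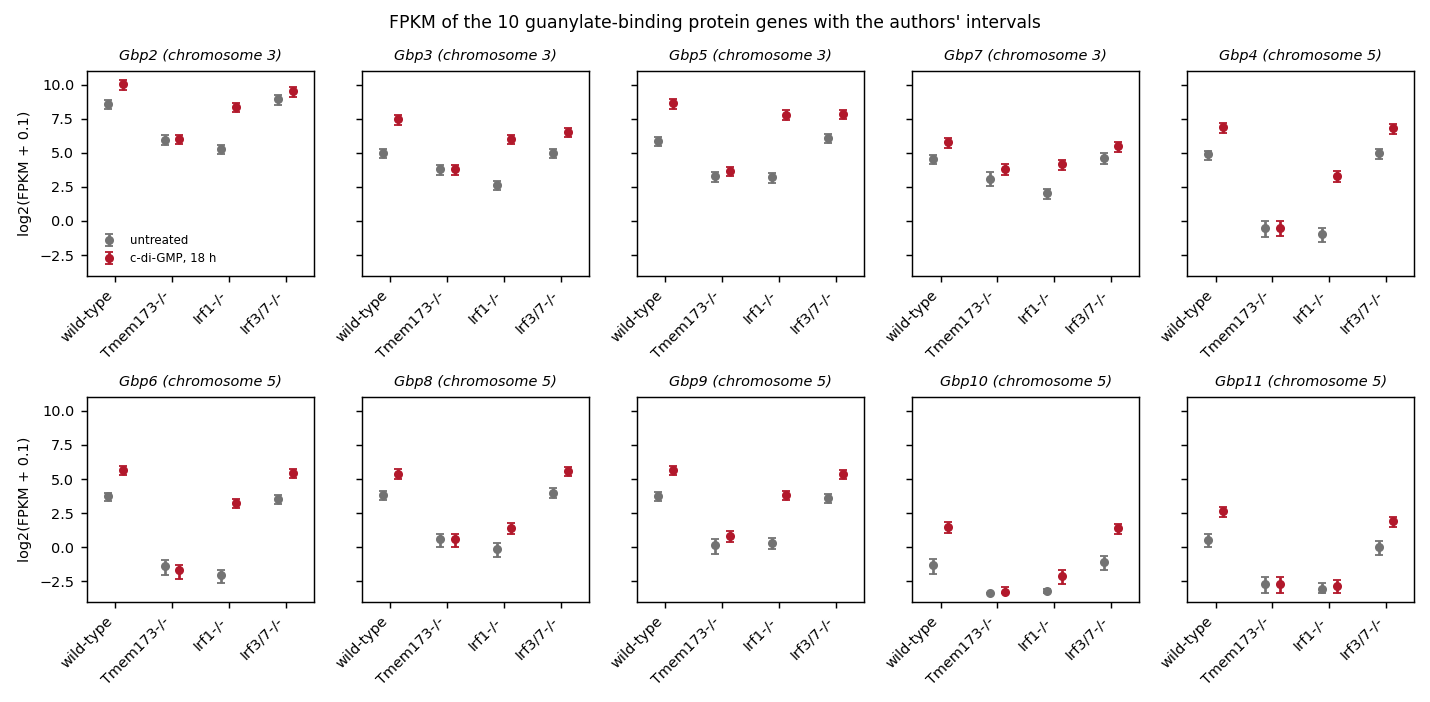
Level of each of the 10 genes as log2(FPKM + 0.1) in the 4 genotypes, untreated (grey) and after c-di-GMP (red). Points are the single value per condition and bars the authors' interval; in wild-type BMDCs every red point lies above its grey point with no overlap, and in Tmem173-/- BMDCs all 10 pairs of bars overlap.

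In untreated wild-type BMDCs the GBP genes were already expressed, with 9 of the 10 at 1 FPKM or above and a sum of 565 FPKM. Gbp2 made up 67.6% of this sum with 382 FPKM (interval, 291 to 473), and was exceeded by few of the 10789 genes at 1 FPKM or above, since 10571 lay below it. Gbp5 followed with 57.5 FPKM (44.3 to 70.8), and its interval overlapped neither that of Gbp2 nor that of the next gene. Gbp3 (31.1 FPKM), Gbp4 (29.2 FPKM) and Gbp7 (23.1 FPKM) could not be ordered, as the intervals of neighbours in the order overlapped. The same held for Gbp8 (14.1 FPKM), Gbp9 (13.2 FPKM) and Gbp6 (13.1 FPKM). Gbp11 with 1.37 FPKM (0.910 to 1.82) and Gbp10 with 0.303 FPKM (0.158 to 0.440) were the lowest, with intervals apart from each other and from the rest. The places of Gbp6 and Gbp10 in this order are uncertain because of their shared sequence.

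In wild-type cells all 10 genes were higher after treatment than before, where 10.5% of all 11201 tested genes were called higher. The members' median log2 change was 1.97, against 0.00 over all tested genes, and 446 tested genes had a larger change than this median. The sum was 565 FPKM before and 1933 FPKM after treatment. Among the genes on chromosome 3, Gbp5, which promotes inflammasome assembly, rose from 57.5 FPKM (44.3 to 70.8) to 398 FPKM (302 to 493), which is 6.91-fold, or between 4.27- and 11.1-fold when the bounds of the intervals are divided. Gbp3 rose from 31.1 FPKM (24.1 to 38.2) to 175 FPKM (134 to 215), 5.6-fold (3.5 to 8.93). Gbp2, a prenylated GBP that coats vacuoles and bacteria, rose from 382 to 1036 FPKM (772 to 1298), 2.71-fold (1.63 to 4.46). The smallest change of the 10 was that of Gbp7, a GBP linked to the assembly of the phagocyte oxidase, from 23.1 FPKM (17.8 to 28.4) to 54.6 FPKM (40.0 to 69.3), 2.36-fold (1.41 to 3.88). Gbp2 thus had the highest level with the next to smallest change on chromosome 3, and its share of the summed FPKM was 53.6% after treatment.

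On chromosome 5 the changes in wild-type BMDCs covered a similar range. Gbp4 rose from 29.2 FPKM (22.6 to 35.8) to 117 FPKM (86.4 to 149), 4.02-fold (2.41 to 6.58). Gbp6 rose from 13.1 to 50.7 FPKM (3.87-fold) and Gbp9 from 13.2 to 51.0 FPKM (3.85-fold). These 3 genes had nearly equal fold changes, and Gbp4 was at a higher level than Gbp6 and Gbp9. Gbp8 rose from 14.1 to 42.2 FPKM, 3.0-fold (1.86 to 4.84), and Gbp11 from 1.37 to 6.19 FPKM, 4.52-fold (2.52 to 8.56). Gbp10 had the largest ratio, 8.95-fold, from 0.303 to 2.71 FPKM, with the widest bounds (4.51 to 21.7), and remained the lowest member. The levels and ratios of Gbp6 and Gbp10 carry the uncertainty from their shared sequence. The log2 changes were 1.23 to 2.79 on chromosome 3 and 1.58 to 2.80 on chromosome 5, so the clusters overlapped in their response in wild-type BMDCs.

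**Figure D2:**
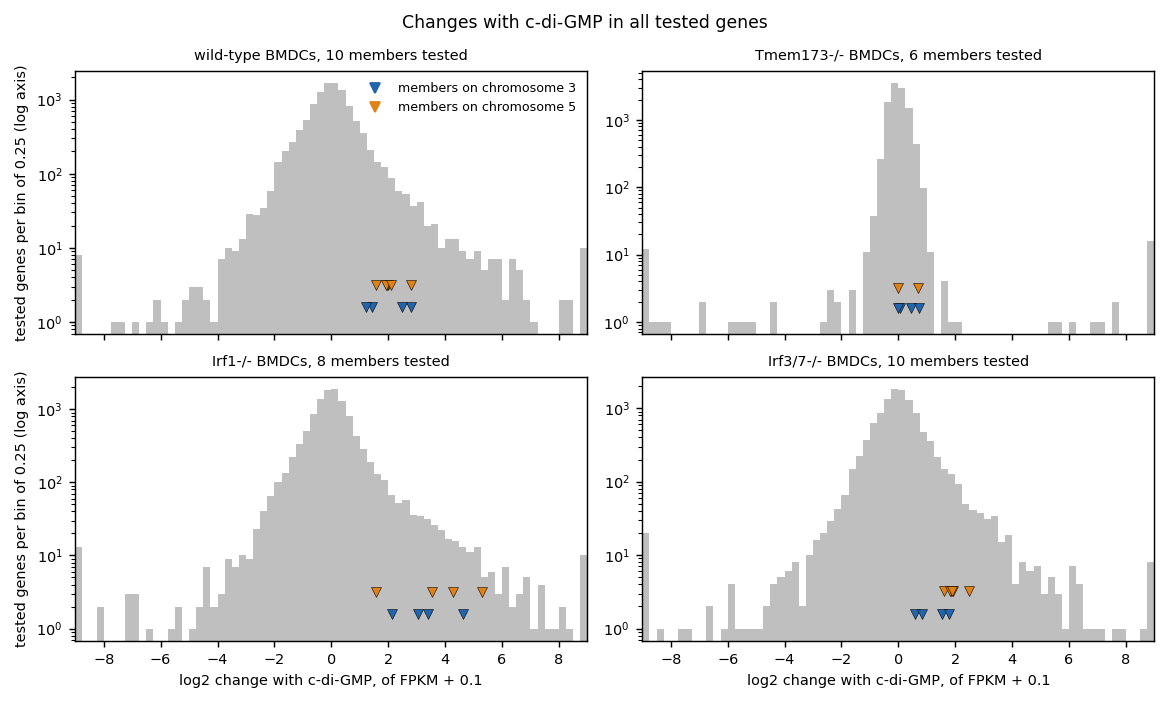
Number of tested genes (log axis) by log2 change with c-di-GMP in each genotype, with the tested members marked as triangles at 2 arbitrary heights, blue for chromosome 3 and orange for chromosome 5. The outermost bins also hold the genes beyond the axis; the members sit at 1.23 to 2.80 in wild-type BMDCs and inside the central peak in Tmem173-/- BMDCs.

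To ask whether these levels depend on STING, the Tmem173-/- conditions were compared with wild-type BMDCs. Before any treatment, 9 of the 10 members were lower in Tmem173-/- BMDCs, where 5.95% of all tested genes were called lower, with a median log2 difference over the 10 members of -2.93 (0.01 over all tested genes). The summed level was 97.2 FPKM, against 565 FPKM in wild-type BMDCs. Gbp2 was at 62.0 FPKM (47.0 to 77.0), 6.16-fold lower, and Gbp5 at 9.50 FPKM (7.12 to 11.9), 6.06-fold lower. Gbp3 with 13.8 FPKM (10.4 to 17.3) and Gbp7 with 8.48 FPKM (5.82 to 11.8) were 2.26- and 2.73-fold lower. Thus all 4 genes on chromosome 3 kept a level of at least 8.48 FPKM without STING. On chromosome 5, in contrast, none exceeded 1.39 FPKM: Gbp8 was at 1.39 FPKM (10.1-fold lower), Gbp9 at 1.04 FPKM (12.7-fold lower), Gbp4 at 0.60 FPKM (48.7-fold lower) and Gbp6 at 0.290 FPKM (45.2-fold lower). Gbp11 was at 0.0550 FPKM, with an interval reaching 0, and Gbp10 was listed at 0. Since Gbp10 was under 1 FPKM in both untreated conditions, it was not tested there.

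The column read as treated Tmem173-/- names Tmem173 with a suffix that no other column has, and the values of that condition rest on this reading. No member was called for c-di-GMP in Tmem173-/- BMDCs, where 6 of the 10 could be tested. In the whole table, 5 of 10867 tested genes were called higher (0.0460%) and 1 lower (0.00920%). Gbp2 was at 62.0 FPKM (47.0 to 77.0) and 64.6 FPKM (49.5 to 79.6), and Gbp3 at 13.8 FPKM in both conditions. Gbp5 was at 9.50 FPKM (7.12 to 11.9) and 12.8 FPKM (9.91 to 15.7). Gbp7 and Gbp9 had the largest ratios. Gbp7 was at 8.48 FPKM (5.82 to 11.8) against 14.0 FPKM (9.98 to 18.0), a ratio of 1.65 (0.846 to 3.09), and Gbp9 at 1.04 and 1.72 FPKM, also a ratio of 1.65 (0.827 to 3.56). The bounds of Gbp2 and Gbp3 leave room for a rise of up to 1.69- and 1.65-fold, so a small change was not detectable. Gbp8 was at 1.39 FPKM without and 1.38 FPKM with c-di-GMP, and Gbp4, Gbp6, Gbp10 and Gbp11 were under 1 FPKM with and without c-di-GMP.

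Compared with treated wild-type BMDCs, all 10 members were lower in treated Tmem173-/- BMDCs, where 13.5% of tested genes were called lower, and the median log2 difference was -4.83 (0.02 over all tested genes). Gbp4 and Gbp6 differed most among the genes whose interval excluded 0, with 0.615 against 117 FPKM (191-fold lower) and 0.207 against 50.7 FPKM (245-fold lower). Gbp5 was 31.0-fold, Gbp8 30.5-fold, Gbp9 29.7-fold, Gbp2 16.0-fold and Gbp3 12.6-fold lower. The smallest difference was that of Gbp7, 3.91-fold (14.0 against 54.6 FPKM). For Gbp10 (0.00389 against 2.71 FPKM) and Gbp11 (0.0553 against 6.19 FPKM) the lower interval reached 0, so only an upper bound of the remaining level is given, 0.0338 and 0.117 FPKM. These comparisons share the wild-type values with those of the other knockouts.

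In untreated Irf1-/- BMDCs the members were low as well. Of the 10 members, 9 were lower than in untreated wild-type BMDCs and Gbp10 was not tested, where 3.52% of tested genes were called lower, with a median log2 difference of -3.34 (0.00 over all tested genes). The sum was 61.3 FPKM. Gbp2 was at 39.7 FPKM (30.7 to 48.6), 9.64-fold lower, Gbp5 at 9.05 FPKM (6.95 to 11.1), 6.36-fold lower, Gbp3 at 6.11 FPKM (4.63 to 7.59), 5.09-fold lower, and Gbp7 at 3.96 FPKM (2.90 to 5.01), 5.85-fold lower. On chromosome 5 the highest level was that of Gbp9 with 1.16 FPKM (11.4-fold lower), followed by Gbp8 with 0.810 FPKM (17.4-fold lower), with overlapping intervals. Gbp4 at 0.414 FPKM and Gbp6 at 0.145 FPKM were 70.6- and 90.6-fold lower. Gbp11 was at 0.0225 FPKM and Gbp10 at 0.00566 FPKM, both with intervals reaching 0, and Gbp10 was not tested.

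In Irf1-/- BMDCs, in turn, most members were higher with c-di-GMP. Of the 10 members, 8 were higher and Gbp10 and Gbp11 were not tested, where 9.67% of all tested genes were called higher, and the median log2 change over the 10 members was 3.21 (0.00 over all tested genes). The sum was 61.3 FPKM before and 668 FPKM after treatment. Gbp6 rose from 0.145 FPKM (0.0645 to 0.221) to 9.45 FPKM (7.25 to 11.7), 65.4-fold, with bounds of 32.8 to 181 that reflect the low starting level. Gbp5 rose from 9.05 to 224 FPKM (171 to 276), 24.7-fold (15.4 to 39.7), and Gbp4 from 0.414 to 9.76 FPKM (7.23 to 12.3), 23.6-fold (12.4 to 49.4). Gbp9 rose 12.5-fold (1.16 to 14.5 FPKM), Gbp3 10.6-fold (6.11 to 64.8 FPKM), Gbp2 8.20-fold (39.7 to 325 FPKM) and Gbp7 4.44-fold (3.96 to 17.6 FPKM). The bounds of these ratios lay above those of wild-type BMDCs for Gbp2, Gbp4, Gbp5, Gbp6 and Gbp9, and overlapped them for Gbp3, Gbp7 and Gbp8, and the difference in response itself was not tested. Gbp8 had a ratio close to that of wild-type BMDCs, 3.21-fold (1.65 to 6.71), from 0.810 to 2.60 FPKM, and with a pseudocount of 1 FPKM its log2 change of 0.99 was below the 2-fold threshold. Gbp10 and Gbp11 stayed under 1 FPKM, at 0.132 FPKM (0.0564 to 0.214) and 0.0422 FPKM (0 to 0.0881).

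The levels reached were nevertheless below those of wild-type BMDCs. Against treated wild-type BMDCs, 9 of the 10 members were lower in treated Irf1-/- BMDCs, where 4.91% of tested genes were called lower, and the median log2 difference was -2.11 (0.02 over all tested genes). The remaining member, Gbp5, had 224 against 398 FPKM, a ratio of 1.78 with intervals apart, under the 2-fold threshold. Gbp3 was 2.69-fold lower (64.8 against 175 FPKM), Gbp7 3.10-fold and Gbp2 3.18-fold. Each gene on chromosome 5 differed more than these: Gbp9 was 3.52-fold lower (14.5 against 51.0 FPKM), Gbp6 5.36-fold (9.45 against 50.7 FPKM), Gbp4 12-fold (9.76 against 117 FPKM), Gbp8 16.2-fold (2.60 against 42.2 FPKM) and Gbp10 20.6-fold (0.132 against 2.71 FPKM). For Gbp11 the lower interval reached 0, and it was at 0.0422 against 6.19 FPKM.

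The separation of the clusters was noticed after the values had been seen, and is given as a description. In treated Irf1-/- against treated wild-type BMDCs, the log2 differences were -1.67 to -0.83 for the 4 genes on chromosome 3 and -5.47 to -1.81 for the 6 on chromosome 5. The ranges did not overlap with a pseudocount of 1 FPKM either (-1.67 to -0.83 and -3.59 to -1.71). As levels, the chromosome 5 genes were at 0 to 1.39 FPKM in untreated Tmem173-/- and 0.00566 to 1.16 FPKM in untreated Irf1-/- BMDCs, against 8.48 to 62.0 and 3.96 to 39.7 FPKM on chromosome 3. In untreated wild-type BMDCs the ranges met, with Gbp4 at 29.2 FPKM above Gbp7 at 23.1 FPKM. For the log2 difference between untreated knockout and wild-type BMDCs, the ranges of the clusters overlapped because of Gbp10 (-2.01 in Tmem173-/- and -1.93 in Irf1-/-), whose level of 0.303 FPKM in untreated wild-type BMDCs leaves little room below it on this scale. Members of a cluster are neighbours with shared sequence, so they are not independent of each other.

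**Figure D3:**
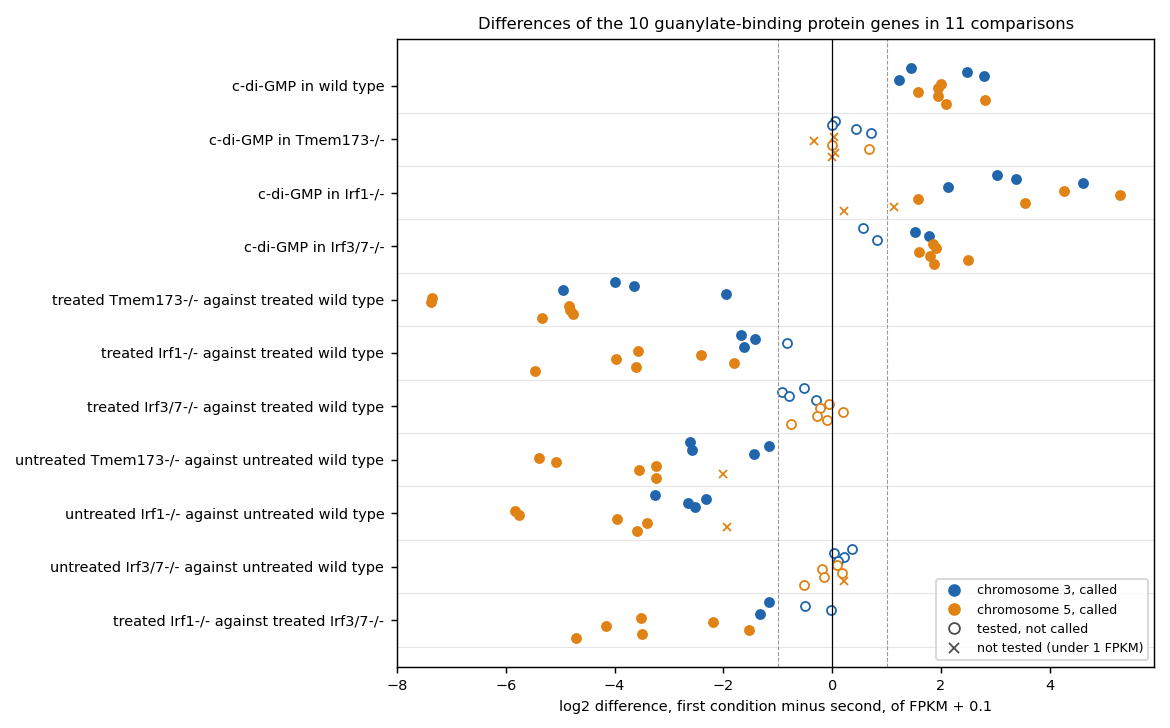
Log2 difference of FPKM + 0.1 for each member (1 symbol per gene) in the 11 comparisons, blue for chromosome 3 and orange for chromosome 5. Filled circles were called, open circles were tested and not called, and crosses were under 1 FPKM in both conditions; the colors are apart in treated Irf1-/- against treated wild-type BMDCs (-1.67 to -0.83 and -5.47 to -1.81) and mixed for c-di-GMP in wild-type cells.

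In the libraries labelled Irf3/7-/-, where Irf3 mRNA after treatment was not below that of wild-type BMDCs, the members were close to the wild-type level. Without treatment none of the 10 members was called, of which Gbp10 was not tested, where 1.17% of tested genes were called higher and 0.863% lower, and the median log2 difference was 0.10 (-0.01 over all tested genes). Gbp2 was at 489 FPKM (371 to 606) against 382 FPKM (291 to 473), and Gbp5 at 66.7 FPKM (51.2 to 82.1) against 57.5 FPKM (44.3 to 70.8). All 10 intervals overlapped with those of wild-type BMDCs. The largest difference was that of Gbp11, 0.921 FPKM (0.587 to 1.26) against 1.37 FPKM (0.910 to 1.82). For Gbp3, at 31.8 and 31.1 FPKM, the bounds allow at most a 1.62-fold higher level.

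After c-di-GMP, 8 of the 10 members were higher than in the untreated libraries of this label, where 10.2% of tested genes were called higher, and the median log2 change was 1.79 (0.00 over all tested genes). The exceptions were on chromosome 3. Gbp2 was at 489 FPKM (371 to 606) and 726 FPKM (547 to 905), a ratio of 1.49 with overlapping intervals. Gbp7 was at 24.9 FPKM (18.4 to 31.4) and 44.3 FPKM (33.1 to 55.5), a ratio of 1.78 with intervals apart. Gbp5 rose 3.42-fold (66.7 to 228 FPKM) and Gbp3 2.88-fold (31.8 to 91.5 FPKM). On chromosome 5 the ratios ran from 3.02 for Gbp8 (16.0 to 48.2 FPKM) to 6.90 for Gbp10 (0.367 to 2.53 FPKM). Gbp4 rose from 31.2 to 113 FPKM, Gbp6 from 11.5 to 43.5 FPKM, Gbp9 from 12 to 41.9 FPKM and Gbp11 from 0.921 to 3.63 FPKM.

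Against treated wild-type BMDCs, no member was called in the treated libraries labelled Irf3/7-/-, where 4.61% of tested genes were called higher and 2.69% lower, and the median log2 difference was -0.29 (-0.02 over all tested genes). Gbp3 with 91.5 FPKM (70.3 to 113) against 175 FPKM (134 to 215), and Gbp5 with 228 FPKM (174 to 281) against 398 FPKM (302 to 493), had intervals apart from those of wild-type BMDCs. Their ratios of 1.91 and 1.75 were under the threshold. Gbp4 was at 113 against 117 FPKM, with bounds of 0.567 to 1.64 for the ratio, and Gbp8 was at 48.2 against 42.2 FPKM. A difference within these bounds was not detectable.

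The treated knockouts were also set against each other. Of the 10 members, 8 were lower in treated Irf1-/- BMDCs than in the treated libraries labelled Irf3/7-/-, where 6.62% of tested genes were called lower, and the median log2 difference was -1.86 (0.04 over all tested genes). The 2 members that were not called were Gbp5, at 224 FPKM (171 to 276) and 228 FPKM (174 to 281), and Gbp3, at 64.8 FPKM (49.6 to 80.0) and 91.5 FPKM (70.3 to 113). Gbp2 was 2.23-fold and Gbp7 2.52-fold lower. Among the genes on chromosome 5, the difference ranged from 2.89-fold for Gbp9 to 18.5-fold for Gbp8 and 19.2-fold for Gbp10, with Gbp11 at 0.0422 against 3.63 FPKM.

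As another view, the log2 change with c-di-GMP within each knockout was divided by that within wild-type BMDCs. Since 0.1 FPKM is added to each value, a low starting level shrinks such a change. In Tmem173-/- BMDCs the median share over the 10 members was 1.77%, with Gbp7 the highest at 57.7% and Gbp6 the lowest at -17.6%, a negative share that stands for values under 1 FPKM. In Irf1-/- BMDCs the median was 169%, and 7 members were over 100%. Gbp6 had 272%, Gbp4 213% and Gbp2 211%, Gbp8 99.4%, and Gbp10 and Gbp11 40.4% and 10.3%. The last 2 shares are set by the added value, as they were 102% and 31.5% with 0.01 FPKM in place of 0.1 FPKM and 11.3% and 1.72% with 1 FPKM. Other shares moved too: with 1 FPKM, Gbp6 had 170%, Gbp4 149% and Gbp8 65.3%, and Gbp2 had 209%. The order of Gbp6, Gbp4 and Gbp2 therefore depends on the added value. In the libraries labelled Irf3/7-/- the median was 89.0%. There the 4 genes on chromosome 3, again a split noticed after the values had been seen, had the lowest shares, 39.7% for Gbp2, 61.4% for Gbp3, 63.5% for Gbp5 and 67.2% for Gbp7, and the 6 on chromosome 5 were between 89.0% and 101%. No error can be given for these shares, since the table has no replicate values.

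**Figure D4:**
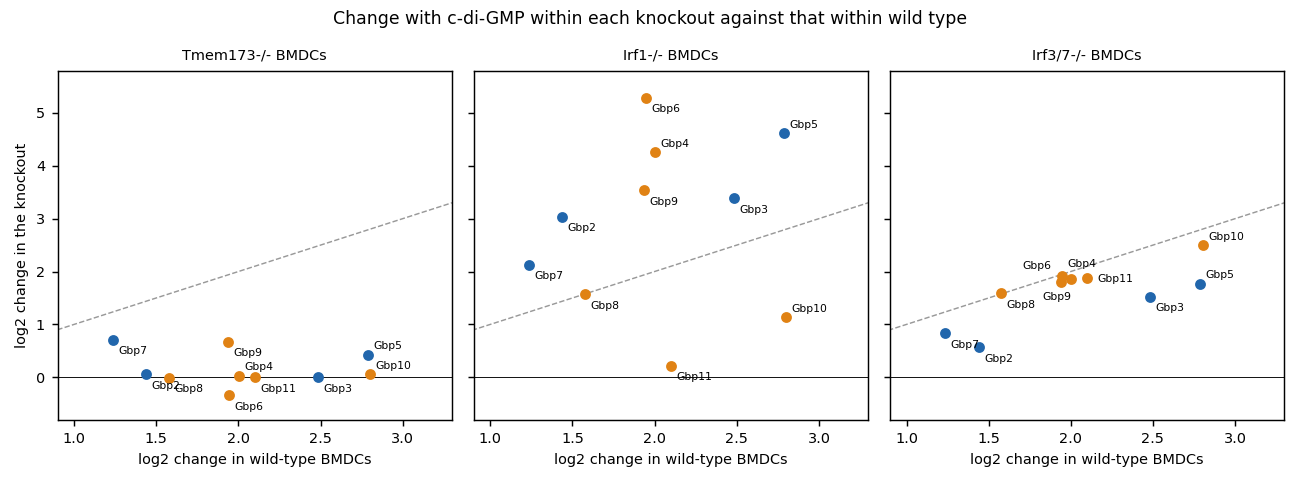
Log2 change of FPKM + 0.1 with c-di-GMP within each knockout (vertical axis) against that within wild-type BMDCs (horizontal axis), 1 point per member, blue for chromosome 3 and orange for chromosome 5. The dashed line marks equal change: the points lie near 0 in Tmem173-/- BMDCs, 7 of 10 lie above the line in Irf1-/- BMDCs, and the chromosome 3 genes lie furthest below it in shares (39.7% to 67.2%) in cells labelled Irf3/7-/-.

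Across the 8 conditions, the profiles of the members were alike. Pearson's r of log2(FPKM + 0.1) between members ranged from 0.728 to 0.992 with a median of 0.924 over 45 pairs, as a description over 8 values that come from the same libraries. Among 7374 other genes with at least 10 FPKM in a condition, Ly6a was most like the mean profile of the members (r = 0.997), a surface antigen that interferon is known to induce. It was at 127 and 672 FPKM in wild-type, 7.51 and 5.56 FPKM in Tmem173-/-, 4.18 and 58.8 FPKM in Irf1-/- and 114 and 465 FPKM in cells labelled Irf3/7-/-. The next were Insl6 (0.993), Gm4951 (0.982), Rmdn3 (0.979), Bcl2l11 (0.979), Fam26f (0.977), Irf1 (0.976), Dbnl (0.975), AW112010 (0.975) and Lag3 (0.975). Irf1 is itself a targeted gene and its level in Irf1-/- BMDCs is that of the remaining RNA.

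The ligands that induce GBPs were compared as well. In wild-type cells Ifng, which encodes IFN-γ, was higher with treatment, from 34.6 FPKM (23.4 to 45) to 299 FPKM (205 to 367), and was listed at 0 in both Tmem173-/- conditions. It was at 1.26 and 25.5 FPKM in Irf1-/- BMDCs. In treated cells labelled Irf3/7-/- it was at 1155 FPKM (777 to 1421), 3.86-fold higher than in treated wild-type BMDCs. Ifnb1, which encodes IFN-β, was listed at 0 in untreated wild-type BMDCs and at 2.93 FPKM after c-di-GMP, at 3.53 FPKM in treated Irf1-/- and at 22.6 FPKM in treated cells labelled Irf3/7-/-. The GBP sums after treatment were 1933 FPKM in wild-type BMDCs, 1342 in cells labelled Irf3/7-/-, 668 in Irf1-/- and 109 in Tmem173-/- BMDCs. The part of either ligand in the GBP levels was not tested. Of the 4 receptor genes Ifngr1, Ifngr2, Ifnar1 and Ifnar2, 1 was higher on treatment of wild-type cells (Ifnar2, 26.1 to 57.5 FPKM), where 10.5% of tested genes were. After treatment 1 was higher in Tmem173-/- than in wild-type cells (Ifngr1, 52.7 against 23.0 FPKM). The share of all tested genes called higher in that comparison is not given here.

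Among 9 transcription factors linked to GBP genes, 3 were higher with c-di-GMP in wild-type cells (Stat2, Irf7 and Irf8), where 10.5% of tested genes were. In Irf1-/- BMDCs 7 were higher, among them the targeted gene Irf1, where 9.67% of tested genes were. After treatment 7 were lower in Tmem173-/- than in wild-type cells, where 13.5% of tested genes were. Irf8, an IRF of dendritic cell development, rose from 55.5 to 303 FPKM in wild-type BMDCs and was at 23.1 and 24.2 FPKM in Tmem173-/- BMDCs, 12.5-fold lower after treatment. In Irf1-/- BMDCs Irf8 rose from 17.0 to 201 FPKM, a level 1.51-fold below that of treated wild-type BMDCs, which was not called. Of the 9 factors only Irf1 itself was lower in treated Irf1-/- than in treated wild-type BMDCs. Without treatment 4 of the 9 were lower in Irf1-/- than in wild-type BMDCs, where 3.52% of tested genes were called lower. These were Irf1, Irf7 (6.22 against 15.2 FPKM), Irf8 (17.0 against 55.5 FPKM) and Batf2 (2.59 against 29.1 FPKM). The part of these factors in the GBP levels was not tested.

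The immunity-related GTPases act with GBPs on vacuoles and are induced by the same interferon. Of 8 genes, 6 were higher with c-di-GMP in wild-type cells, 8 in Irf1-/- and 4 in the libraries labelled Irf3/7-/-, and none in Tmem173-/- BMDCs. The shares of all tested genes called higher were 10.5%, 9.67%, 10.2% and 0.0460%, in this order. Compared with wild-type BMDCs of the same treatment, all 8 were lower in untreated and treated Tmem173-/- and in untreated Irf1-/- BMDCs, and 6 in treated Irf1-/- BMDCs. Of all tested genes, 5.95%, 13.5%, 3.52% and 4.91% were lower in these comparisons, in this order. None of the 8 was called between the libraries labelled Irf3/7-/- and wild-type BMDCs, untreated or treated. The exceptions in treated Irf1-/- BMDCs were Irgm1, at 230 against 304 FPKM, and Irgm2, at 35.3 against 67.8 FPKM. Irgm2 had intervals apart and a ratio of 1.92, under the 2-fold threshold. Igtp was called lower, at 60.6 against 156 FPKM. Iigp1, an effector that loads onto vacuoles, was at 6.89 against 161 FPKM (23.4-fold lower). Tgtp1 and Tgtp2 are near-identical copies whose reads may be split between them.

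Other partners of GBPs were counted in the same way. Of 6 genes for enzymes of the lipid tail that anchors some GBPs, such as Fnta and Fntb of farnesyltransferase, none was called in any of the 11 comparisons. Of 12 autophagy and ubiquitin factors that place GBPs on vacuoles, Sqstm1, Traf6 and Trim21 were higher with c-di-GMP in wild-type and Irf1-/- BMDCs and lower in treated Tmem173-/- BMDCs, and none of the conjugation genes Atg3, Atg5, Atg7, Atg12 and Atg16l1 was called in these comparisons. Of 6 inflammasome genes, Casp1 (49.5 to 157 FPKM) and Casp4 (20.1 to 125 FPKM), the latter encoding caspase-11, were higher with c-di-GMP in wild-type cells, and Casp1, Casp4 and Gsdmd were lower in treated Tmem173-/- BMDCs. Over all tested genes, 10.5% were higher with c-di-GMP in wild-type and 9.67% in Irf1-/- BMDCs. In treated Tmem173-/- against treated wild-type BMDCs 13.5% were lower. Of 3 other large GTPases induced by interferon, Mx1 (28.4 to 157 FPKM) and Mx2 (1.19 to 37.0 FPKM) were higher in wild-type BMDCs with c-di-GMP. Neither Mx1 nor Mx2 was called in treated Irf1-/- against treated wild-type BMDCs, with 138 against 157 and 30.1 against 37.0 FPKM.

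Cultures of bone marrow can hold other cell types, and the summed markers of NK and T cells were low in the untreated genotypes with low GBP levels. The 7 NK cell markers summed to 418 and 376 FPKM in untreated and treated wild-type BMDCs, with 6 and 5 of 7 at 1 FPKM or above. The sums were 7.26 and 5.97 FPKM in Tmem173-/-, 12.4 and 12.6 FPKM in Irf1-/- and 426 and 1089 FPKM in cells labelled Irf3/7-/-. Gzma was the highest of the 7 in wild-type BMDCs (349 and 329 FPKM) and in cells labelled Irf3/7-/- (315 and 900 FPKM), and was listed at 0 in both Tmem173-/- conditions. Klrd1 went the other way in Tmem173-/- BMDCs, at 4.83 against 2.01 FPKM without treatment (called higher) and 4.01 against 2.13 FPKM with it (not called). Ncr1, a defining NK cell marker, was at or below 0.661 FPKM everywhere and at 0 in untreated Tmem173-/- and both Irf1-/- conditions. The 7 T cell markers summed to 68.4 and 49.6 FPKM in wild-type, 1.76 and 1.73 FPKM in Tmem173-/-, 6.43 and 10.2 FPKM in Irf1-/- and 93.9 and 167 FPKM in cells labelled Irf3/7-/-. With c-di-GMP, the GBP sum was 1933 FPKM in place of 565 FPKM in wild-type BMDCs, where both marker sums were lower than before. It was 668 in place of 61.3 FPKM in Irf1-/- BMDCs, where the NK cell sum was nearly equal and the T cell sum higher. That higher T cell sum came from Lck (1.26 to 6.16 FPKM), and the other T cell markers were lower than before. In cells labelled Irf3/7-/- the GBP sum was 1342 in place of 684 FPKM, and both marker sums were higher too. Of the 7 NK cell markers, 3 were called higher there, where 10.2% of tested genes were. The 2 called lower were Klrb1c (4.05 to 0.618 FPKM) and Eomes (13.6 to 6.36 FPKM). The share of all tested genes called lower there is not given here. The 5 B cell markers summed to 10.7 and 8.40 FPKM in Tmem173-/- BMDCs, where 3 of the 5 were higher than in wild-type BMDCs with and without treatment, and to between 3.34 and 6.75 FPKM elsewhere. The share of all tested genes called higher there is not given here, so the count does not show whether these markers stand out. The part of these cells in the genotype differences was not tested, and in bulk RNA fewer cells of a type and less RNA per cell cannot be told apart.

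**Figure D5:**
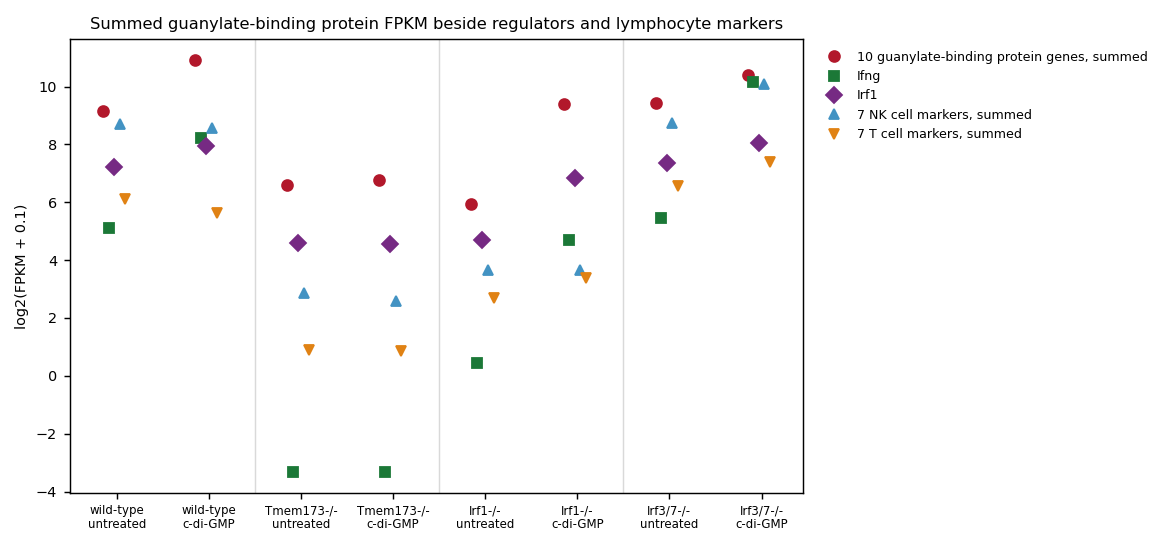
Summed FPKM of the 10 GBP genes beside Ifng, Irf1 and the summed NK and T cell markers, as log2(FPKM + 0.1), in the 8 conditions. The GBP sum is lowest in untreated Irf1-/- BMDCs (61.3 FPKM) and highest in treated wild-type BMDCs (1933 FPKM); the NK and T cell sums are low in all 4 Tmem173-/- and Irf1-/- conditions.

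Other markers showed other patterns. The 6 measured neutrophil markers summed to 19829 and 14396 FPKM in the Tmem173-/- cells, compared with 4000 and 1893 FPKM in wild-type and 1404 to 2448 FPKM in the other knockouts. The 7 measured macrophage markers summed to 634 and 583 FPKM in Tmem173-/- BMDCs and to between 165 and 455 FPKM elsewhere. Not every marker followed this sum: in treated Tmem173-/- BMDCs Mertk was at 3.74 FPKM, against 16.9 FPKM in treated wild-type BMDCs. The median log2 difference of the 7 markers was 0.18 there. The 6 basophil and mast cell markers summed to 169 and 260 FPKM in the libraries labelled Irf3/7-/- and to between 56.3 and 92.2 FPKM elsewhere. The part of these cells in the GBP differences was not tested.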

How the data were processed

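Per the labels, RNA of 16 BMDC samples (8 conditions, 2 samples each) was made into stranded, poly-A selected libraries, and read from both ends (35 bp each). The authors used Cuffdiff (version 1.06 in the submitters' processing notes), which combined the samples of a condition, and deposited FPKM, normalized to gene length and library total, with the bounds of an interval and a status. The notes name the build mm9, but the positions in the table match GRCm38. The paper gives another Cuffdiff version and a higher dose of c-di-GMP than the labels. The aligner and annotation are not given in the sources used here, a strand setting is named for a Seqmonk analysis and not for Cuffdiff, and reads of near-identical copies may have been split. The column read as treated Tmem173-/- carries a header that names Tmem173 with an unusual suffix. A set of 4 columns of another knockout was not used.

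FPKM were compared as log2(FPKM + 0.1), with at least 1 FPKM in a condition, the status OK, more than 2-fold and intervals that do not overlap as the rule for calls, in 11 comparisons, of which several share a condition. No p-value was computed, and 1 interval per condition, whose depth is unknown, is the measure of error. The code for the calls was run on simulated data only to check the code. The error rate of the calls in these samples was not tested, since values per replicate were not analysed. All 10 members are named; of other lists, counts and up to 4 genes by FPKM, with the targeted genes, Ifng and Ifnb1. A further gene of the transcription factor list is not reported here. Further list genes and Gbp1 were named after their values were seen. The members, lists and markers were chosen with earlier results of these data known. As alternatives, a pseudocount of 1 and of 0.01 FPKM, no minimum and one of 5 FPKM, a fold of 1.5 or 4, fold or intervals alone, and median centring were tried. Python 3.11.15, numpy 2.4.6, pandas 2.3.3 and matplotlib 3.10.9 were used.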

Additional observations from a re-analysis of the deposited data

How the results depend on the processing

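With a fold threshold of 4, 5 members were called higher on treatment of wild-type cells and 1 in the libraries labelled Irf3/7-/-, and 5 were lower in treated Irf1-/- than in treated wild-type BMDCs and 5 than in the treated libraries labelled Irf3/7-/-. With a threshold of 1.5, or with the intervals alone, 2 members (Gbp3 and Gbp5) were lower in the treated libraries labelled Irf3/7-/- than in treated wild-type BMDCs. The share of all tested genes called under these settings was not computed. These counts therefore show only how the members' calls depend on the rule, and not whether the members stand out. The median share of the wild-type change kept in Irf1-/- BMDCs was 150% with a pseudocount of 1 FPKM, against 169%. Only the added value differed between the 2 medians. The share of Gbp6 was 170% in place of 272%, and that of Gbp2 was 209% in place of 211%. The other counts of called members stayed within 1.5 times the main count under the alternatives run. Among 990 single values, 945 kept their direction and side of the threshold, 34 lost a call (23 of them with a threshold of 4 and 10 with a minimum of 5 FPKM), 11 gained one and none changed direction. Median centring moved no comparison by more than 0.05 on the log2 scale. No paired analysis was possible because the table holds no column per replicate, and for the same reason leaving out a replicate was not run. The intervals of Gbp11 in Tmem173-/- and Irf1-/- BMDCs, and of Gbp10 in Tmem173-/- and untreated Irf1-/- BMDCs, reached 0.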

Other observations

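Gbp1, which the current annotation calls Gbp2b and which was looked at after its values were seen, lies outside the 10 genes. Like them, it was lower in Tmem173-/- and Irf1-/- than in wild-type BMDCs, untreated and treated, but it was not called for c-di-GMP in wild-type BMDCs. It was at 1.46 and 1.83 FPKM in untreated and treated wild-type, 0.509 and 0.646 FPKM in Tmem173-/- and 0.607 and 0.270 FPKM in Irf1-/- BMDCs. In the libraries labelled Irf3/7-/- it was at 3.47 FPKM without treatment and fell to 0.321 FPKM with c-di-GMP, a ratio of 0.0926, or 0.0386 to 0.188 from the interval bounds. Gbp2 shared 3.87% of its stretches of 35 bases with this gene.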
